A study of Mus musculus with 2 samples.

Results

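Nodal, the Activin receptors and the SMAD proteins of the same signalling pathway were examined together with the Lefty genes in 46C mouse embryonic stem cells (mESCs) that overexpress polyadenylated telomeric RNA (TERRA). The 9 genes, Nodal, Lefty1, Lefty2, Smad2, Smad3, Smad7, Skil, Acvr1b and Acvr2b, were taken by their symbol from the 18888 genes of the deposited table, and all 9 have a row. The PB mESCs carry the empty PiggyBac (PB) vector. The PB-TERRA mESCs express telomeric repeats with a poly(A) tail from the same vector. 46C is a mouse embryonic stem cell line with a GFP reporter in the Sox1 gene, and both groups were used at passages 21 to 24, on gelatin and in standard mESC medium. Each condition was sequenced as 1 library prepared from total RNA. There is thus no replicate spread, no difference here has a replicate check, and every comparison is between these 2 libraries.

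Nodal and the Activins are ligands of the TGF-beta family. They bind receptor pairs made of a type I receptor, such as Acvr1b (ALK4), and a type II receptor, such as Acvr2b, and Nodal also needs the co-receptor Cripto (Tdgf1). The active receptor phosphorylates Smad2 and Smad3, which enter the nucleus with Smad4 and act there with DNA-binding partners such as Foxh1. Among the genes that this pathway induces are its own inhibitors. Lefty1 and Lefty2 are secreted antagonists that block Nodal and its co-receptor, Smad7 blocks the type I receptor, and Skil (SnoN) is a nuclear co-repressor of the SMAD proteins. In mESCs the pathway is active, and Lefty1 and Lefty2 are among its well-known targets.

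The expression values are read as FPKM, the number of fragments scaled to gene length and to all mapped fragments, which allows levels of different genes to be compared per length. The step between low values of short genes gave about 24745000 reads behind the PB library and 24875000 behind the PB-TERRA library, and the reads of each gene were estimated from these totals. Differences are given as the log2 of (FPKM + 0.1) in PB-TERRA over (FPKM + 0.1) in PB, which understates the change of low genes. The 95% intervals are exact binomial (Clopper-Pearson) intervals of the log2 ratio of the estimated reads. They cover counting error only and say nothing of the spread between cultures. Genes were kept when the higher of their values was 1 FPKM or more, which left 12263 genes with a median log2 ratio of -0.0044 and an SD of 0.31 across genes. All 10 embryonic stem cell markers checked passed it, from Tfcp2l1 (27.02 FPKM in PB and 34.08 in PB-TERRA) to Dppa5a (1162.50 and 1039.92 FPKM).

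Lefty1 and Lefty2 are neighbouring paralogs on chromosome 1, and their shared sequence limits how well reads can be told apart. In the GENCODE M21 annotation of GRCm38, Lefty2 lies at chr1:180893108-180899103 and Lefty1 at chr1:180935022-180938400, both on the + strand and with 35918 bases between them. Both have 4 exons and a coding sequence of 1107 bases, and 1017 of these bases (91.9%) are identical. The longest identical run is 140 bases. A short read from such a run could come from either gene. The least alike stretch of 180 bases lies in exon 1, at coding bases 33 to 212 (chr1:180935142-180935321 in Lefty1 and chr1:180893216-180893395 in Lefty2). It is shown because its 49 differing bases, in capitals, let reads be assigned to 1 gene.
Lefty1, least alike: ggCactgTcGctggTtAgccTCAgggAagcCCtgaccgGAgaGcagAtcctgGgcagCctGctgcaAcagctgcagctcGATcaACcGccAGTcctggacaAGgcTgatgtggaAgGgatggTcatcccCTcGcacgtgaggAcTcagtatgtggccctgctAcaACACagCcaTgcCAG
Lefty2, least alike: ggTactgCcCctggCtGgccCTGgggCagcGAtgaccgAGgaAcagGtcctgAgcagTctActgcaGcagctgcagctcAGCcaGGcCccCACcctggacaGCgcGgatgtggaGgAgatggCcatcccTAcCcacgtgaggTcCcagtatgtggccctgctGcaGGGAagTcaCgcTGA
Of all stretches of 50 bases, 17.9% in Lefty1 and 11.6% in Lefty2 also occur in another gene's transcript, and 281 of them are common to this pair. The longest coding transcripts of the other 7 genes share no such stretch with any other annotated gene (0 for each). For Acvr2b this transcript has 3175 bases against a deposited length of 10502, so part of its sequence was not checked. No annotated exon of the 9 genes overlaps an exon of another gene (0 for each). How the authors' counting divided shared reads is not given in the sources used here, so the values of Lefty1 and Lefty2 are uncertain to that extent.

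Both Lefty genes were lower in the PB-TERRA library, and they were the most abundant of the 9 genes in both libraries. Lefty2 had 129.08 FPKM in PB and 94.65 FPKM in PB-TERRA, 26.7% lower (log2 ratio -0.45, 95% interval -0.50 to -0.40, from 7602 and 5604 reads). Lefty1 had 92.24 FPKM in PB and 76.69 FPKM in PB-TERRA, 16.9% lower (log2 ratio -0.27, 95% interval -0.34 to -0.19, from 3442 and 2877 reads), and its log2 ratio was -0.17 with the median of genes of like GC content and length taken off. Summed over the pair, the reads were 11044 and 8481 (log2 ratio -0.39, 95% interval -0.43 to -0.35). Lefty2 exceeded Lefty1 1.40 times in PB and 1.23 times in PB-TERRA, so the pair stood in the same order in both libraries.

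**Figure D1:**
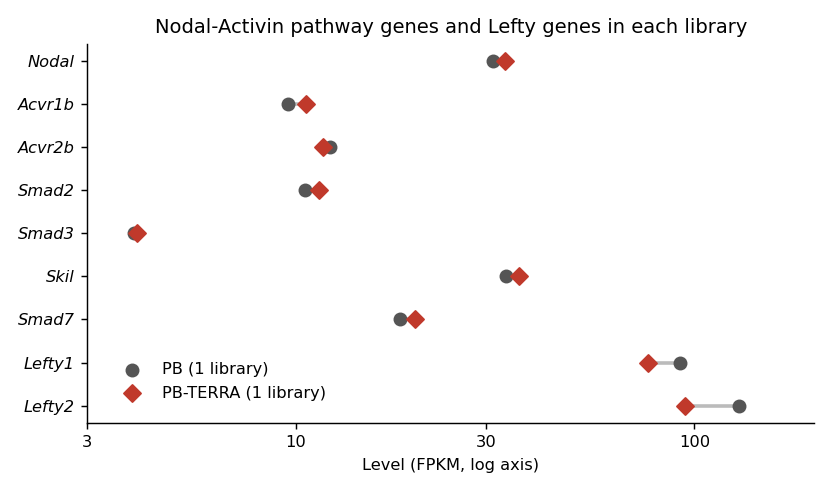
Level of each of the 9 genes in FPKM (log axis), with a circle for the PB library and a diamond for the PB-TERRA library; each symbol is 1 library, so there are no error bars. Lefty1 and Lefty2 stand at the right and lie lower in PB-TERRA (76.69 and 94.65 FPKM) than in PB (92.24 and 129.08 FPKM), while the symbols of the other genes nearly coincide.

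Among all genes past the filter, 3.02% had a log2 ratio at or below that of Lefty2 and 8.75% at or below that of Lefty1. Abundant genes varied less. Among the 1734 genes whose mean level was 50 FPKM or more, 18 (1.04%) were at or below Lefty2 and 77 (4.44%) at or below Lefty1. Neither gene reached a log2 ratio of 1 in either direction, which 0.913% of all genes past the filter did. The RNA comes from whole cultures, in which fewer cells that express a gene and less RNA per cell cannot be told apart.

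**Figure D2:**
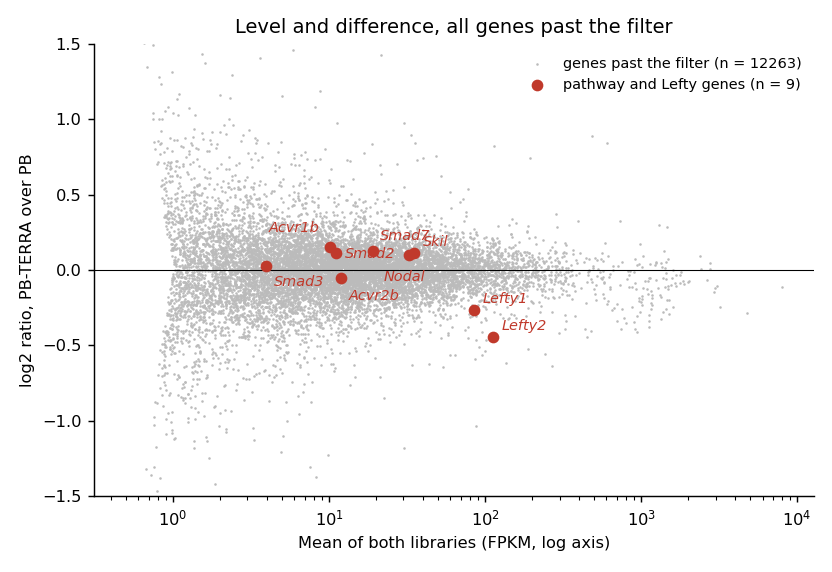
Log2 ratio of PB-TERRA over PB (y axis) against the mean FPKM of both libraries (x axis, log) for 12263 genes past the filter (grey) and the 9 genes (red); 50 genes beyond 1.5 in either direction lie outside the plot. Lefty2 (-0.45) and Lefty1 (-0.27) lie toward the lower edge of the genes of like level, and the other 7 lie within the bulk, from -0.06 to 0.15.

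Nodal, the ligand whose activity the Lefty proteins limit, did not differ detectably as measured. It had 31.22 FPKM in PB and 33.42 FPKM in PB-TERRA, a log2 ratio of 0.10 whose interval, -0.0034 to 0.20, just included 0 (1530 and 1646 reads). The log2 ratio was 0.12 with the median of genes of like length taken off and 0.15 with GC content and length taken off. The ratio of Lefty2 to Nodal was 4.13 in PB and 2.83 in PB-TERRA, and that of Lefty1 to Nodal was 2.95 and 2.29. These ratios within a library do not depend on how the libraries were scaled to each other. Nodal lies on chromosome 10 (61417972 to 61425338, + strand) and has 3 exons.

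The receptors differed little between the libraries. Acvr1b, the type I receptor for Activin and Nodal, had 9.55 FPKM in PB and 10.64 FPKM in PB-TERRA (log2 ratio 0.15, 95% interval 0.01 to 0.30). Acvr2b, a type II receptor, had 12.17 and 11.71 FPKM (log2 ratio -0.06, 95% interval -0.13 to 0.02), which these reads could not resolve from 0. The log2 ratio of Acvr2b was -0.13 with the median of genes of like length taken off and -0.03 with GC content and length taken off. Acvr1b was thus the lower of the pair in both libraries, with Acvr2b at 1.27 times its level in PB and 1.10 times in PB-TERRA. In GRCm38 Acvr1b lies on chromosome 15 (101174067 to 101213684) and Acvr2b on chromosome 9 (119402118 to 119434995), both on the + strand. The size of this ratio depends on gene length. The table gives Acvr2b 10502 bases and Acvr1b 3277 bases, whereas the longest coding transcripts in GENCODE M21 have 3175 and 4418 bases.

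Of the receptor-regulated SMAD genes, Smad2 was the more abundant. It had 10.57 FPKM in PB and 11.44 FPKM in PB-TERRA (log2 ratio 0.11, 95% interval 0.03 to 0.20), and its log2 ratio was 0.06 both with the median of genes of like length and with that of genes of like GC content and length taken off. Smad3 was the least abundant of the 9 genes, with 3.93 and 4.01 FPKM (log2 ratio 0.03, 95% interval -0.16 to 0.21), which was not a detectable difference. Smad3 lies on the - strand of chromosome 9 (63646767 to 63757994) and Smad2 on chromosome 18. Smad2 exceeded Smad3 2.69 times in PB and 2.85 times in PB-TERRA.

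The inhibitors that act inside the cell, Smad7 and Skil, had log2 ratios above 0 as measured, although that of Skil did not stay there when GC content and length were taken into account. Smad7, the inhibitory SMAD, had 18.29 FPKM in PB and 19.96 FPKM in PB-TERRA (log2 ratio 0.13, 95% interval 0.04 to 0.22). Skil, the nuclear co-repressor, had 33.69 and 36.38 FPKM from 5727 and 6217 reads (log2 ratio 0.11, 95% interval 0.06 to 0.16). It lies on chromosome 3 (31095058 to 31122577, + strand). With the median of genes of like GC content and length taken off, its log2 ratio was -0.0027. The feedback inhibitors of the pathway among the 9 genes therefore did not share a direction, with Lefty1 and Lefty2 lower and Smad7 higher in the PB-TERRA library.

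Taking the 9 genes as a list, all of which passed the filter, 6 were higher and 3 lower in PB-TERRA, and their median log2 ratio was 0.10. With the median of genes of like length taken off, 5 were higher and 4 lower and the median was 0.06, and with GC content and length taken off the counts were again 5 and 4 and the median was 0.03. Of all genes past the filter, 48.6% were higher. The interval lay above 0 for 4 genes (Acvr1b, Smad2, Smad7 and Skil), beside 18.1% of all genes past the filter, and below 0 for 2 genes (Lefty1 and Lefty2), beside 17.6%. With GC content and length taken off, the log2 ratio was 0.20 for Acvr1b, 0.06 for Smad2, 0.17 for Smad7 and -0.0027 for Skil. It was then -0.17 for Lefty1 and -0.41 for Lefty2, and the intervals were not recomputed. Such intervals become narrow in deeply sequenced genes. Of the 5189 genes with a mean of at least 1000 reads, 49.0% had an interval on 1 side of 0, and of the 7 genes of the list with as many reads 5 had. A log2 ratio of at most -0.3 was found for 1 of the 9 (Lefty2), beside 7.00% of all genes, and one of at least 0.3 for 0 of the 9, beside 5.96%. A log2 ratio of 1 or more in either direction was found for 0 of the 9.

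**Figure D3:**
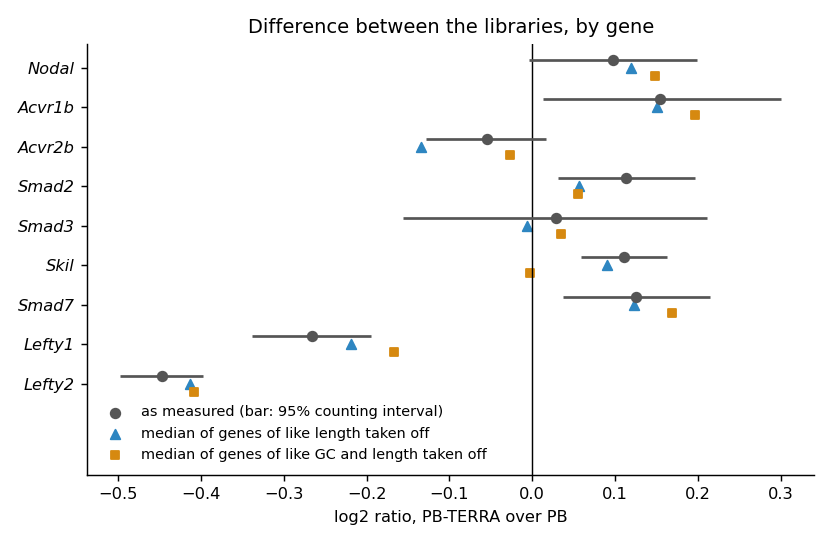
Log2 ratio of PB-TERRA over PB (x axis) for the 9 genes, as measured with its 95% counting interval (grey circle and bar) and with the median of genes of like length (blue triangle) or of like GC content and length (orange square) taken off. Lefty1 and Lefty2 stay below 0 in all 3 versions, Skil moves from 0.11 to -0.0027 in the last, and Smad3 lies near 0 throughout.

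Longer genes had slightly higher ratios in this pair of libraries. The median log2 ratio was -0.06 in the tenth of genes with the shortest lengths and 0.05 in that with the longest. Lefty1 (1622 bases) is among the shorter genes, Lefty2 (2494 bases) is of middling length, and Smad2 (8742 bases) and Skil (6984 bases) are long. With the median of genes of like length taken off, the log2 ratio was -0.22 for Lefty1, -0.41 for Lefty2, 0.06 for Smad2 and 0.09 for Skil. Acvr2b, the longest gene of the list, moved from -0.06 to -0.13, and Smad3 from 0.03 to -0.0059. With GC content and length taken off together, an alternative added once the values were known, Lefty1 had -0.17, Lefty2 -0.41, Nodal 0.15, Acvr1b 0.20 and Smad7 0.17.

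**Figure D4:**
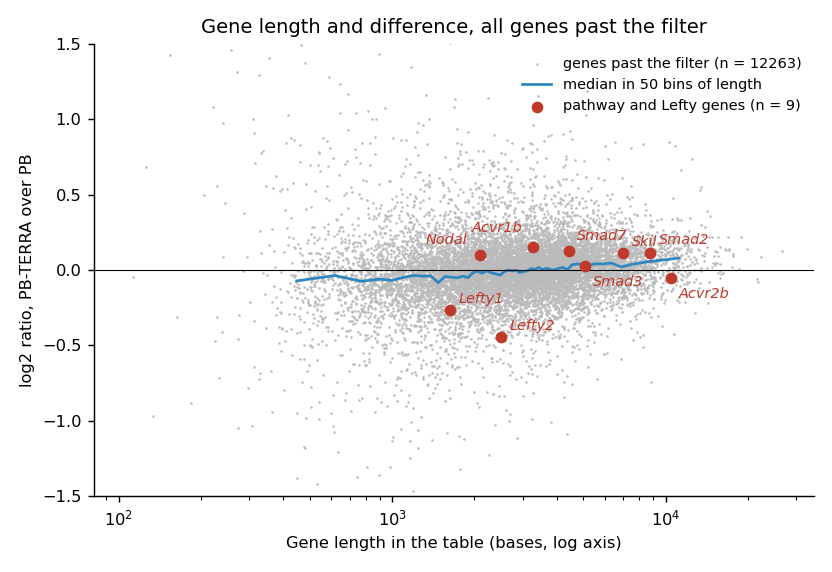
Log2 ratio of PB-TERRA over PB (y axis) against the gene length in the table (x axis, log) for 12263 genes past the filter (grey) and the 9 genes (red), with the median in 50 bins of length (blue line); 50 genes beyond 1.5 in either direction lie outside the plot. The line climbs slowly from left to right, and Lefty1 and Lefty2 lie further below it than any other of the 9 genes.

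Around these 9 genes, a wider list of 58 genes of the Nodal-Activin and TGF-beta pathway was read in the same way. Of these, 55 have a row and 44 passed the filter. There were 29 higher and 15 lower in PB-TERRA, beside 48.6% higher of all genes past the filter. The median log2 ratio of these 44 was 0.05. The interval lay above 0 for 16 and below 0 for 7, beside 18.1% and 17.6% of all genes. These shares are not matched for read depth. Of the 5189 genes with a mean of at least 1000 reads, 1413 had an interval above 0 and 1130 below 0. Without the 9 genes, 23 of 35 were higher and 12 lower, the interval lay above 0 for 12 and below 0 for 5, and the median was also 0.05.

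Tdgf1 (Cripto), the co-receptor and the most abundant gene of the wider list, had 314.06 FPKM in PB and 277.83 FPKM in PB-TERRA (log2 ratio -0.18, 95% interval -0.21 to -0.14). Foxh1, the DNA-binding partner of Smad2 and Smad3, had 57.45 and 46.50 FPKM (log2 ratio -0.30, 95% interval -0.41 to -0.20). Gdf1, a ligand that pairs with Nodal, had 5.97 and 3.75 FPKM, the lowest log2 ratio of the list among genes past the filter (-0.66, 95% interval -0.98 to -0.37, from 234 reads in PB). Its exons overlap those of Cers1 on the same strand over 1349 bases and those of Upf1 (44.1 FPKM in PB and 42.56 FPKM in PB-TERRA) on the opposite strand over 63 bases, so reads of these genes cannot be told apart there. Cers1 has no row in the table, which gives Gdf1 a length of 1697 bases, and the part of Cers1 reads in the value of Gdf1 was not tested.

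Other ligands were higher or did not differ detectably. Gdf3, the most abundant ligand, had 59.61 FPKM in PB and 63.93 FPKM in PB-TERRA (log2 ratio 0.10, 95% interval 0.03 to 0.17). Inhbb, which encodes the beta B subunit of the Activins, had 9.26 and 11.52 FPKM (log2 ratio 0.31, 95% interval 0.19 to 0.44). Tgfb2 had 1.71 and 2.32 FPKM, the highest log2 ratio of the list among genes past the filter (0.42, 95% interval 0.18 to 0.70). Of the convertases that cut the Nodal precursor, Pcsk6 was higher (log2 ratio 0.14, 95% interval 0.02 to 0.27) and Furin lower (-0.16, 95% interval -0.29 to -0.03).

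Counts for receptors, co-repressors and turnover factors are read against the 48.6% of all genes that were higher and the 18.1% with an interval above 0. Of 5 receptors past the filter 4 were higher, with the interval above 0 for 2, Acvr1b and Tgfbr1 (log2 ratio 0.19), and their median log2 ratio of 0.13 became 0.02 with GC content and length taken off. Of the 8 co-factors and co-repressors, 5 had an interval above 0, and 1, Foxh1, had one below. All 8 had a mean of at least 1000 reads, and of the 5189 genes with as many, 1413 had an interval above 0. With GC content and length taken off, the median log2 ratio of the 8 went from 0.09 to 0.06. Of the 5, Skil went from 0.11 to -0.0027 and Trim33 from 0.15 to 0.05, while Ski, Tgif1 and Tgif2 were higher than as measured. Tgif1, a co-repressor and the most abundant of the 8, had 150.39 FPKM in PB and 163.85 FPKM in PB-TERRA. Its log2 ratio was 0.12, 0.21 with length taken off and 0.16 with GC content and length taken off. Among the 7 genes of SMAD turnover, 6 were higher, 2 of them with an interval above 0, but 4 were higher with GC content and length taken off, and their median went from 0.04 to 0.0021. These were Rnf111 (Arkadia), a ubiquitin ligase that removes Skil and Smad7 (log2 ratio 0.21, 95% interval 0.12 to 0.30), and Usp9x, a deubiquitinase of Smad4 (0.20, 95% interval 0.17 to 0.23). The value of Usp9x was 0.12 with length taken off and 0.09 with GC content and length taken off. Smad4 itself had 31.13 and 29.73 FPKM (log2 ratio -0.07, 95% interval -0.15 to 0.01).

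Of 7 antagonists other than the Lefty genes past the filter, 5 were higher and 2 lower, beside 48.6% higher of all genes. The only interval on 1 side of 0 among these 7, beside 18.1% of all genes above and 17.6% below, was that of Pmepa1, a SMAD target that limits Smad2 and Smad3. It had 6.85 FPKM in PB and 8.62 FPKM in PB-TERRA (log2 ratio 0.33, 95% interval 0.19 to 0.47). Bambi, a decoy receptor, had 1.60 and 1.36 FPKM (log2 ratio -0.22, 95% interval -0.54 to 0.07). Whether these genes differ from the Lefty genes was not tested. Fstl3, which binds Activin, had a log2 ratio of 0.37 with an interval from -0.08 to 0.86. The exons of Fstl3 overlap those of Prss57 (0.03 and 0.01 FPKM) on the opposite strand over 1157 bases, as those of Tgfb2, Furin and Eomes overlap opposite-strand genes over 124, 118 and 118 bases and those of Pcsk6 a gene on its own strand over 156 bases. The library kit does not mark the strand, so reads from these bases cannot be told apart.

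The transcription factor targets of Nodal signalling had low levels, at most 9.08 FPKM. Of 6 listed, 2 passed the filter, too few to set against the 48.6% of all genes that were higher. Eomes had 6.13 FPKM in PB and 5.05 FPKM in PB-TERRA (log2 ratio -0.27, 95% interval -0.46 to -0.10). Brachyury, listed as T, had 9.08 and 8.37 FPKM (log2 ratio -0.12, 95% interval -0.30 to 0.07), which was not a detectable difference. Foxa2, under the filter, was higher in PB-TERRA on few reads (8 against 23, 95% interval 0.30 to 2.89).

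**Figure D5:**
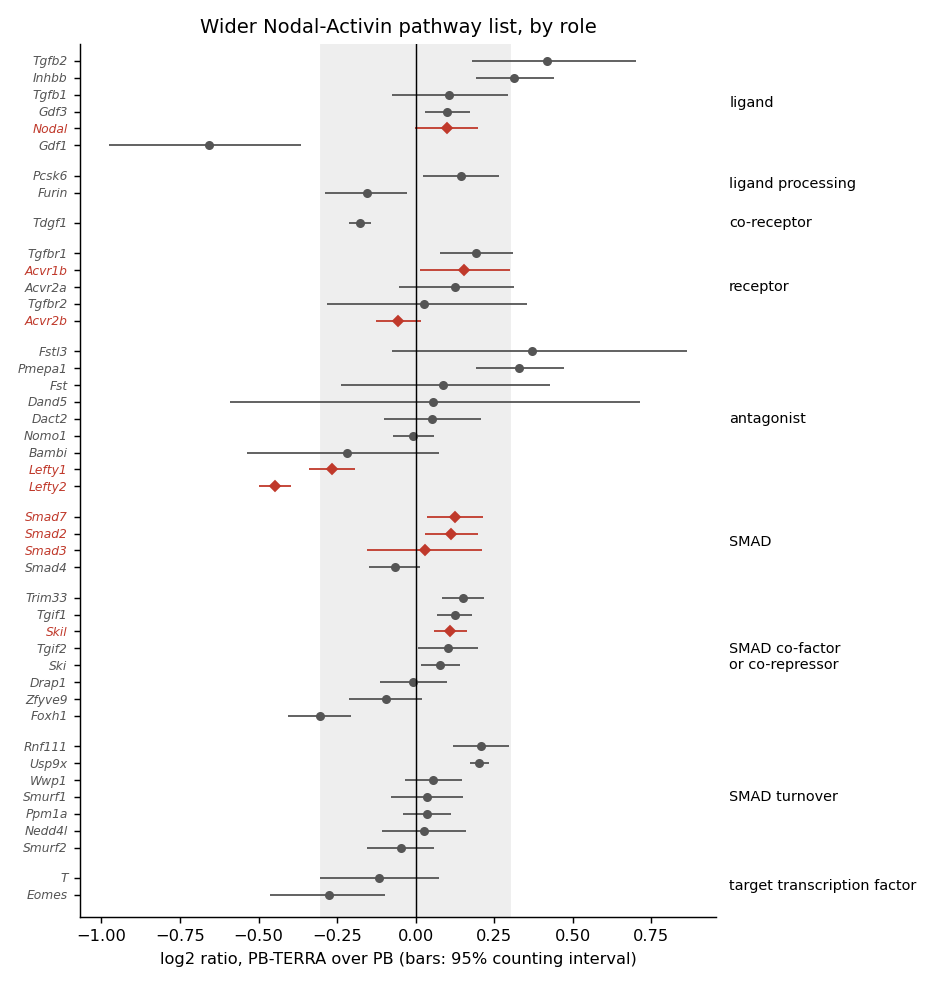
Log2 ratio of PB-TERRA over PB (x axis) for the 44 genes of the wider list past the filter, grouped by role; bars are 95% counting intervals, red diamonds are the 9 genes, and the grey band spans -0.3 to 0.3. Lefty2, Foxh1 and Gdf1 lie to the left of the band, and Tgfb2, Fstl3, Pmepa1 and Inhbb lie to its right.

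Markers of other cell types that mESC cultures can form were read beside these results. All 7 primitive endoderm markers had higher FPKM in PB-TERRA, beside 48.6% of all genes past the filter, with sums of 11.42 FPKM in PB and 15.42 FPKM in PB-TERRA. The interval lay above 0 for Gata6 (1.22 and 2.26 FPKM), Pdgfra (0.51 and 1 FPKM), Sox7 and Dab2, beside 18.1% of all genes past the filter, and it included 0 for Gata4, Sox17 and Amn. Mesendoderm markers were lower in 4 and higher in 2 of 6, with sums of 16.39 and 14.74 FPKM, and Lhx1 was at the floor of 0.01 FPKM in PB. Fibroblast markers were higher in 4 and lower in 3 of 7 (18.78 and 22.85 FPKM). The interval lay above 0 for Col1a1 (7.99 and 12.14 FPKM), Col1a2 (0.92 and 1.37 FPKM) and Col3a1 (0.21 and 0.47 FPKM), beside the same 18.1%, and below 0 for none, while Lum was near the floor at 0.06 and 0.04 FPKM. Neural markers were higher in 3 and lower in 2 of 5 (59.38 and 53.62 FPKM, mostly Tubb3), with Olig2 at the floor in PB. Sox1 was higher (1.06 and 1.56 FPKM, 95% interval 0.18 to 0.93) and Tubb3 lower (57.66 and 51.48 FPKM, 95% interval -0.25 to -0.08). The embryonic stem cell markers were higher in 6 and lower in 4 of 10. Their interval lay above 0 for Pou5f1, Sox2, Esrrb, Fgf4 and Tfcp2l1 and below 0 for Nanog, Utf1 and Dppa5a, beside 49.0% on 1 side of 0 among all genes with at least 1000 reads. The part of such cells in the Lefty, Tdgf1 and Foxh1 values was not tested.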

How the data were processed

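The authors prepared libraries from the total RNA of each culture with TruSeq RNA v2, 1 per condition, and sequenced these on a BGISEQ-500. The submitters' processing notes name HISAT, Cufflinks and mm9, and their versions, roles and the counting are not given in the sources used here. The authors deposited FPKM values per gene, rounded to 2 decimals with a floor of 0.01; the header names no unit, which was inferred from the values. The deposited fold changes, p-values and adjusted p-values hold the authors' own comparison and were not used.

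Depth was estimated from the deposited FPKM values and gene lengths alone. For short genes, the depth and the bases taken off the length were chosen for which most low values were whole numbers of reads within rounding. With 114 bases off, 72.2% of 604 values in PB and 77.4% of 641 in PB-TERRA were whole, where the rounding tolerance alone gives 14.8% and 15.0%. Why 114 bases are needed is not known. Reads of a gene are FPKM times the shortened length times depth, rounded.

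The 9 genes, the wider list and the markers were chosen with earlier results of these data known. Named are the 9 genes, the most abundant gene of each role, and the 5 highest and 5 lowest log2 ratios of the wider list with at least 50 reads; Furin, Tgfbr1, Bambi and the genes under the filter were named after their values were seen. Of the 58 listed genes, Mstn, Acvr1c and Cer1 have no row; 1 further gene of the list as first written is not reported here. GC content came from GENCODE M21 (93.5% of 12263 genes matched by symbol). The depth estimate and the intervals were tested on reads simulated with counting error only. In that test the bases off the length were searched over a narrower range than in the data. It does not cover effects of length or GC content or differences between cultures. No p-value is given, because each condition has 1 library. Analyses used scipy 1.17.1, pandas 2.3.3, numpy 2.4.6, Biopython 1.88 and matplotlib 3.10.9 in Python 3.11.15.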

Additional observations from a re-analysis of the deposited data

How the results depend on the processing

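Log2 ratios of the 9 genes were recomputed with 0.01 or 1 FPKM added, centred on the median of all genes, with the median of genes of like length taken off, from reads scaled to the totals, and from reads without the bases taken off the length. GC content with length was added after seeing the data. Lefty1 ranged from -0.27 to -0.17 and Lefty2 from -0.45 to -0.41. Nodal, Acvr1b, Smad2 and Smad7 stayed above 0. Among the 9 genes, the values that moved beyond the counting interval's half-width were those of Acvr2b with length taken off (-0.13) and, with GC content and length taken off, of Lefty1 (-0.17) and Skil, which turned to -0.0027. The cause was not tested. No paired analysis was possible because each condition has 1 library, and for the same reason no replicate could be left out. Depth limits Smad3 most, with 484 reads in PB.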

Other observations

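Of the wider pathway list, 11 genes had a row but stayed under 1 FPKM in both libraries. Foxa2, an endoderm transcription factor, had 8 reads in the PB library against 23 (log2 ratio of the reads 1.52, 95% interval 0.30 to 2.89), while the mesendoderm gene Mixl1 had 44 and 39 reads (-0.18, 95% interval -0.84 to 0.47). Gsc had 5 and 2 reads. Lhx1 was at the floor of 0.01 FPKM in PB, read as 0 reads, and had 3 reads in PB-TERRA. Its 95% interval ran from -1.28 without an upper limit. Neither difference was detectable at this depth. Inhba, which encodes the beta A subunit of Activin A, had 7 reads in each library, and Cfc1 (Cryptic), a relative of Tdgf1, had 3 in each.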
